A study of Arabidopsis thaliana with 72 samples.

Results

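The daily time course of isolated leaf veins in short days comprised 12 of the 72 arrays of the series, namely those titled as short day vasculature. Arabidopsis thaliana Col-0 seedlings grew on a mineral medium (Murashige and Skoog) that held 0.5% sucrose, in cycles of 8 h of light and 16 h of dark, and RNA was taken at Zeitgeber time (ZT, hours after lights on) 0, 4, 8, 12, 16 and 20 on days 9 and 10. Each time on each day was measured on 1 array, so every time point rests on 2 arrays and the whole course covers 44 h. Veins were freed from the leaves with enzymes and sonication, a step the labels time at under 30 minutes per sampling. The comparison groups were 12 arrays each of short day mesophyll isolated by the same kind of treatment, of short day whole leaf (whole cotyledons), and of veins from long days of 16 h of light and 8 h of dark. The labels name no mutant or transgene for these groups. No label says that the arrays of days 9 and 10 came from separately sown cultures, so the p-values rest on a spread between samples that could be technical in part.

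The vein of a leaf holds the xylem, which brings water and minerals, the phloem, which carries sugar out, and the cells between them. It is also where the photoperiodic pathway reads day length: GIGANTEA and its partners set the daily level of CONSTANS, which switches on FLOWERING LOCUS T in phloem companion cells, and the CYCLING DOF FACTORs hold that switch down. Plant clocks are built from morning and evening genes that repress each other, and in light-dark cycles their outputs are shaped by light, sugar and temperature signals as well.

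Of 22 vein markers listed, 6 had a probe set of 1 gene (CLE26, CLE41, GTR2, LHW, OPS and SWEET11), and all 6 were higher in every short day vein array than in every short day mesophyll array. Their mean log2(intensity + 1) ran from 7.26 to 7.90 over the vein arrays (median 7.72) and from 3.40 to 4.21 over the mesophyll arrays (median 3.85). All 6 mesophyll markers (ATPC1, GLYK, HPR, LHCB4.1, PRK and SBPASE) were lower in every vein array, at a mean of 6.47 to 7.23 against 8.99 to 9.72, and none of them was near background in veins. Of 4 epidermis and guard cell markers (BLUS1, FAMA, MUTE and SPCH), MUTE and SPCH were below the filter level of 1.92 in all 12 vein arrays, and the mean of the 4 ran from 1.56 to 1.88 there and from 1.65 to 1.87 in mesophyll. Of 9 genes of wounding and tissue isolation, 7 were lower in every vein array than in every mesophyll array, with mean levels of 3.11 to 3.95 against 7.65 to 8.83. The 12 arrays had median intensities of 3.58 to 3.66. Arrays of the same time on the 2 days correlated at r = 0.990 to 0.993 across probe sets, and the lowest r between arrays of different times was 0.955, so no array stood apart.

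A daily rhythm was present in 3163 of 21827 probe sets (14.5%) by limma's F test, with moderated variances, for a cosine of 24 hours (adjusted p under 0.03). Testing the 6 times as separate levels called 3967 (18.2%), of which 2508 were shared with the cosine test. The fitted amplitude, which is the distance from mean to peak in log2 units, had a median of 0.49 over the called probe sets and quartiles of 0.36 and 0.73. The median over all 21827 was 0.13. An amplitude of at least 1 was reached by 394 called probe sets (12.5%), and 58 reached 2. A single gene could be assigned to 1514 of the 3163.

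Peaks were spread around the whole day. Peaks nearest to ZT0, 4, 8, 12, 16 and 20 were fitted for 466, 528, 554, 405, 603 and 607 probe sets. The fewest peaked near ZT12, 4 h after lights off, and the most in the later night. Peaks between ZT0 and ZT8 made up 34.3% of the called probe sets, beside 33.4% of all probe sets tested and a light period that is 33.3% of the day. Rhythms with peaks near lights on were the larger ones, with a median amplitude of 0.57 at ZT0, and those peaking near ZT16 the smaller, at 0.44. The highest of the 6 arrays of a day fell at the same time on both days for 55.6% of called probe sets and 31.8% of all tested. The called probe sets were chosen on these same 12 arrays, which favours agreement between the days, so a higher share was built in. Among called probe sets, the share was 67.2% for peaks near ZT4 and 43.7% for peaks near ZT20.

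**Figure D1:**
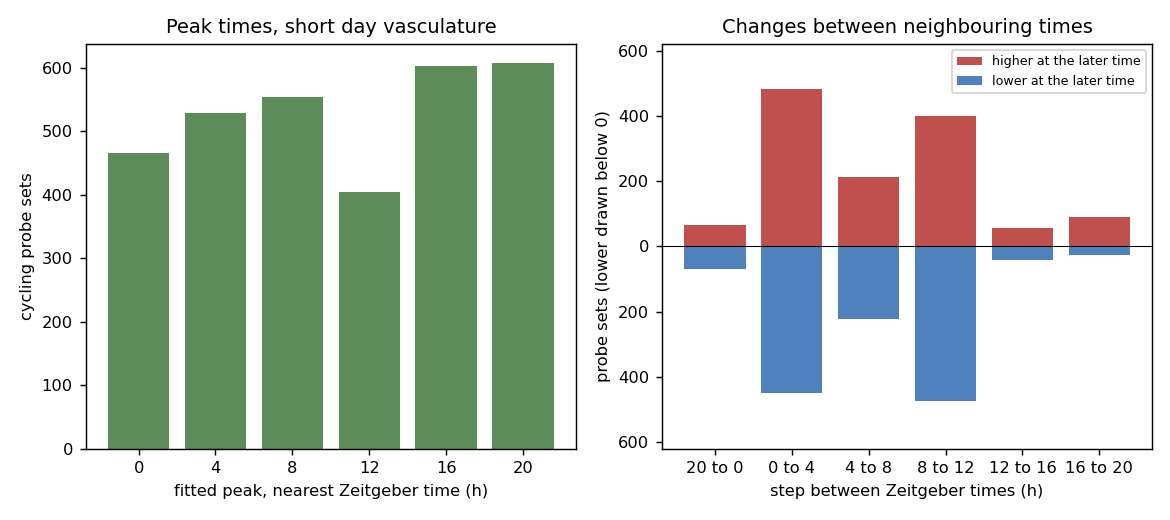
The left panel counts the 3163 cycling probe sets by the sampling time (hours after lights on) nearest to their fitted peak, and the right panel counts probe sets that were at least 1 log2 unit higher (red, above 0) or lower (blue, below 0) at the later of neighbouring times by an adjusted p under 0.05. Peaks are lowest in number near ZT12 (405), and the steps from ZT0 to ZT4 and from ZT8 to ZT12 hold the most calls, 932 and 874.

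The timing carried over from one day to the next. With day 9 alone, 19 probe sets passed the cycling rule, and on day 10 the fitted peak of 19 of them lay within 2 h. An alternative added after the data were seen took the 500 probe sets with the lowest adjusted p on day 9, with ties in order of probe set number. Of these 500, 87.0% peaked within 2 h and 97.0% within 4 h on day 10, beside 38.6% and 59.6% of all probe sets tested. The median amplitude of the 500 was 0.80 on day 9 and 0.75 on day 10.

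Among genes assigned to the circadian clock, 5 of the 9 with a probe set cycled, beside 14.5% of all probe sets, and the median amplitude of the 9 was 0.30. Many central clock genes, CCA1, LHY and TOC1 among them, had no probe set of a single gene and are not analysed here. GIGANTEA (GI, AT1G22770), an evening clock protein that also activates the flowering pathway, read 3.48, 8.25, 8.51, 2.1, 2.1 and 2.05 from ZT0 to ZT20 on day 9. On day 10 the same times read 2.81, 8.06, 8.54, 1.97, 1.90 and 2.01. GI was therefore high at ZT4 and ZT8 only, and the high and low times did not overlap. Its fitted amplitude was 3.67 ± 0.51 (SE, n = 12) with a peak at 5.67 ± 0.54 h (limma, adjusted p = 0.0018). Its low values were near the filter level of 1.92, so no fold is given. The profile was far from a sinusoid, with an adjusted p of 2.4e-05 for shape beyond the cosine. GI rose by 5.01 ± 0.19 from ZT0 to ZT4 and fell by 6.49 ± 0.19 from ZT8 to ZT12 (limma, adjusted p = 3.9e-07 and 2.4e-07).

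COR27 (AT5G42900), a cold-induced repressor of evening clock genes, took the next place in the day. It read 2.53, 2.95, 8.23, 7.83, 6.41 and 4.69 on day 9 and 3.23, 2.14, 8.09, 8.23, 6.84 and 4.48 on day 10. The gene was low in the morning, rose by 5.61 ± 0.29 between ZT4 and ZT8 (limma, adjusted p = 8.4e-06), the largest rise of that step among single-gene probe sets, and declined through the night. Its amplitude was 3.00 ± 0.36 with a peak at 12.2 ± 0.46 h (limma, n = 12, adjusted p = 0.00071). Its relative COR28 (AT4G33980) followed the same order at a dim level, with 2.62 and 2.53 at ZT8 and 1.49 to 1.63 at ZT0 and ZT4, and an amplitude of 0.52 ± 0.07 (limma, n = 12, adjusted p = 0.0018).

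RVE5 (AT4G01280), a MYB-like factor related to the morning clock genes, had a small rhythm on the opposite side of the day. Its values were 3.39, 3.38, 2.62, 3.08, 3.03 and 3.55 on day 9 and 3.73, 3.57, 2.45, 3.04, 3.21 and 3.49 on day 10. It was lowest at ZT8 on both days, with an amplitude of 0.43 ± 0.09 and a fitted peak at 22.3 ± 0.82 h (limma, n = 12, adjusted p = 0.018). LIP1, a small GTPase that tempers light input to the clock, had an amplitude of 0.30 ± 0.07 and a peak at 18.9 h (limma, n = 12, adjusted p = 0.019). The calls of RVE5 and LIP1 were lost when any of 5 and any of 6 single arrays were left out (highest adjusted p 0.045 without day 9 ZT8 and 0.057 without day 10 ZT8). TIC, RVE6, FIO1 and XCT had amplitudes of 0.20, 0.17, 0.16 and 0.08 and adjusted p from 0.036 to 0.65 in limma's test.

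**Figure D2:**
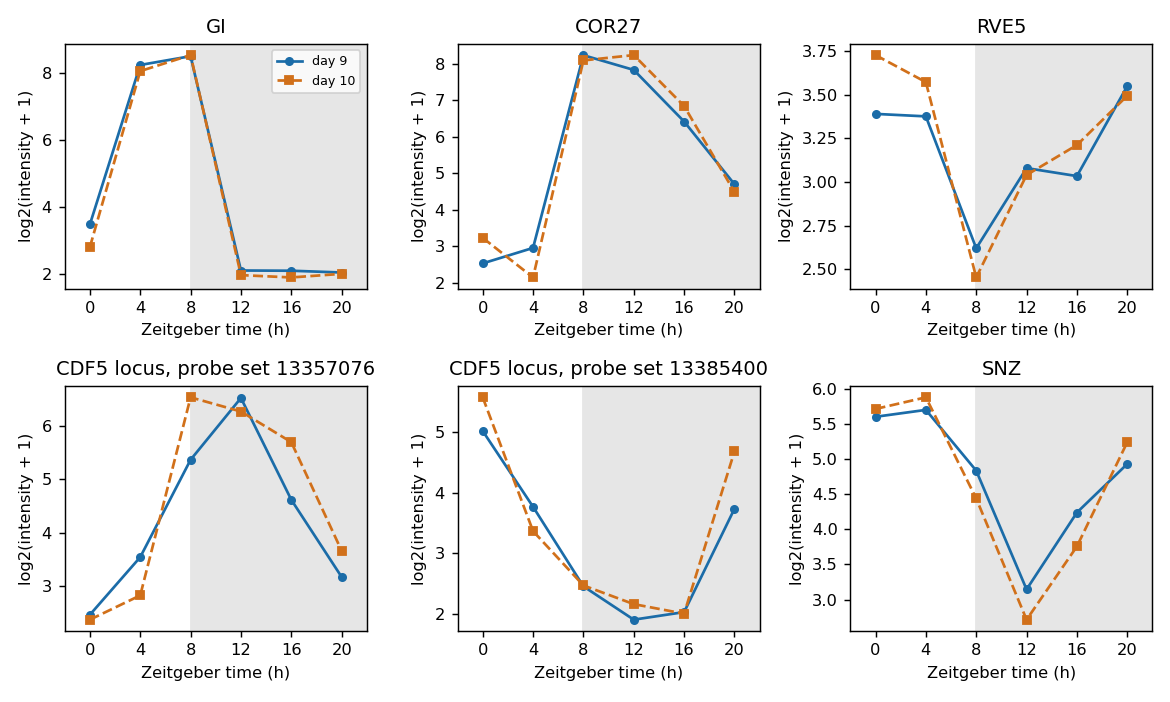
Each panel plots log2(intensity + 1) of a gene in short day veins against hours after lights on, with day 9 as circles and day 10 as squares, 1 array per point, and the dark period shaded. GI is high at ZT4 and ZT8 only, COR27 from ZT8 to ZT16, and the CDF5 probe sets peak at 11.7 h and 23.9 h.

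The flowering list held 5 probe sets of 4 genes, and 3 of the 5 cycled (beside 14.5% of all probe sets). The cycling ones were both probe sets of the CDF5 locus and that of SNZ, so CDF5 is counted more than once. CDF5 (AT1G69570), a DOF-type repressor of CONSTANS and FLOWERING LOCUS T, was covered by 2 probe sets of opposite timing. The first (13357076) read 2.46, 3.54, 5.36, 6.52, 4.61 and 3.17 on day 9 and 2.37, 2.83, 6.53, 6.27, 5.69 and 3.66 on day 10. The second (13385400) read 5.02, 3.77, 2.46, 1.91, 2.03 and 3.74, then 5.58, 3.37, 2.47, 2.16, 2.0 and 4.68. The first was thus highest around lights off and lowest at lights on, and the second the reverse. Amplitudes were 2.08 ± 0.18 with a peak at 11.7 ± 0.33 h and 1.64 ± 0.18 with a peak at 23.9 ± 0.42 h (limma, n = 12, adjusted p = 8.3e-05 and 0.00043). An antisense transcript is known at this locus, and neither probe set can be tied to a strand or transcript from the sources used here, so neither is read as the CDF5 message.

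SNZ (AT2G39250), an AP2-like repressor of flowering, read 5.60, 5.70, 4.84, 3.15, 4.24 and 4.93 on day 9 and 5.72, 5.88, 4.44, 2.71, 3.76 and 5.24 on day 10. It was lowest at ZT12 on both days, 7.27-fold below its highest time mean on the scale of intensity + 1. Its amplitude was 1.34 ± 0.14 with a peak at 1.12 ± 0.40 h (limma, n = 12, adjusted p = 0.00031). Its relative SMZ had an amplitude of 0.24 (limma, adjusted p = 0.10). FD, the partner of FT protein, had a pattern that the cosine test did not call (limma, adjusted p = 0.76) and the test over times did (limma, adjusted p = 0.00023). FD was highest at ZT12, at 4.95 and 5.21, with a lesser high at ZT4, at 4.52 and 4.45, and low at ZT16, at 3.46 and 3.36.

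Both light signalling genes with a probe set cycled (beside 14.5% of all probe sets), 1 of them with a call that did not hold without single arrays. HYH, a bZIP factor of light responses close to HY5, peaked at 21.9 h, before lights on, with 3.44 and 3.66 at ZT20 against 2.04 and 1.91 at ZT12 (amplitude 0.69 ± 0.11, limma, n = 12, adjusted p = 0.0029). PIF7, a phytochrome-interacting growth factor, ran from 1.67 to 2.64 with a peak at 4.01 h (amplitude 0.37 ± 0.08, limma, n = 12, adjusted p = 0.021). PIF7 is near the filter level, and its call was lost when any of 9 single arrays was left out (adjusted p up to 0.071, without day 10 ZT4).

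The nuclear photosynthesis genes that cycled crested in the morning. PPDK, PRK, SBPASE, PSB27, LHCB4.3 and PGRL1B were not called by the cosine test (limma, adjusted p from 0.037 to 0.21). Of 15 measured, 9 cycled (beside 14.5% of all probe sets), all with fitted peaks between 23.7 and 3.79 h, that is from just before lights on to the middle of the light period. The most precise was LHB1B2 (AT2G34420), a chlorophyll-binding protein of the photosystem II antenna, at 10.80, 10.82, 10.18, 8.75, 8.88 and 10.14 on day 9 and 10.79, 10.94, 10.27, 8.79, 8.88 and 9.91 on day 10. LHB1B2 was highest at ZT0 and ZT4, intermediate at ZT8 and ZT20 and lowest at ZT12 and ZT16 (amplitude 1.16 ± 0.07, peak 2.20 ± 0.24 h, limma, n = 12, adjusted p = 8.7e-06). LHCB4.2 of the minor antenna peaked at 23.7 h with an amplitude of 0.74 ± 0.10 (limma, n = 12, adjusted p = 0.0014). The other cycling members had amplitudes from 0.26 (PSAE-1, a photosystem I subunit) to 0.49 (PSAN, another). Among them were PSBY and PSBW of photosystem II at 0.45 and 0.39, the chloroplast ATP synthase subunit ATPC1 at 0.39, LHCB4.1 at 0.36 and Rubisco activase (RCA) at 0.33. The calls of ATPC1, PSAE-1 and RCA were lost without any of 5, 5 and 3 single arrays (adjusted p up to 0.045, without day 9 ZT4 for ATPC1 and day 10 ZT12 for RCA).

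Of the 6 mesophyll markers, 2 cycled (beside 14.5% of all probe sets), and 4 of the 6 (ATPC1, LHCB4.1, PRK and SBPASE) are also on the photosynthesis list. The mean of the 6 was lowest at ZT16, at 6.52 and 6.47, and its highest array was 7.23 at ZT4 of day 10. ATPC1 and LHCB4.1 were the cycling members, and the photorespiration enzymes GLYK and HPR, which are not on the photosynthesis list, were not called (limma, adjusted p = 0.997 and 0.42). The vein marker mean ran the other way, from 7.26 and 7.27 at ZT0 to 7.90 at ZT16 of day 9. The part of these shifts in the photosynthesis rhythms was not tested, and in tissue samples a change in the share of a cell type cannot be told apart from a change in RNA per cell. None of 63 plastid-encoded genes cycled by limma's cosine or time-of-day test, and their median amplitude was 0.04; 2 had an unadjusted cosine p under 0.05.

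Of 6 starch genes, 4 cycled (beside 14.5% of all probe sets), with peaks from 3.92 to 10.8 h. APL3, a large subunit of the enzyme that makes ADP-glucose, peaked at 5.56 ± 0.47 h with an amplitude of 0.56 ± 0.07 (limma, n = 12, adjusted p = 0.00079). The branching enzyme SBE2.2 peaked at 3.92 h with an amplitude of 0.49 ± 0.11 (limma, n = 12, adjusted p = 0.022), a call lost without any of 8 single arrays (adjusted p up to 0.065, without day 9 ZT4). The degradation enzymes came later. DPE1 (AT5G64860), which works on the malto-oligosaccharides of starch breakdown, read 3.67, 5.01, 6.12, 5.25, 4.96 and 4.18, then 4.07, 5.81, 6.02, 5.33, 4.99 and 3.98. PWD, which phosphorylates starch granules, read 4.93, 5.64, 7.22, 6.83, 6.22 and 5.38, then 4.82, 5.73, 7.17, 6.71, 6.01 and 5.92. Both had their highest array at ZT8 on both days and amplitudes of 1.01 ± 0.14 and 1.01 ± 0.12, with peaks at 9.09 ± 0.52 and 10.8 ± 0.47 h (limma, n = 12, adjusted p = 0.0015 and 0.00081). QQS and APL4 were not called (limma, adjusted p = 0.12 and 0.34).

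AKINBETA1 (AT5G21170), a beta subunit of the energy-sensing SnRK1 kinase, was high throughout the night. It read 7.10, 4.39, 5.37, 8.08, 7.50 and 6.92 on day 9 and 7.14, 4.75, 5.85, 8.45, 7.57 and 6.88 on day 10. The 4 dark or dawn times were all above the ZT4 and ZT8 values on both days. The gene rose by 2.65 ± 0.18 between ZT8 and ZT12 (limma, adjusted p = 4.0e-05). Its fitted amplitude was 1.39 ± 0.31 with a peak at 16.1 ± 0.84 h (limma, n = 12, adjusted p = 0.021). That cosine call was lost without any of 7 single arrays (adjusted p up to 0.072, without day 9 ZT4), while the test over times gave 5.8e-06. Of the 5 measured genes of carbon starvation, 2 cycled by cosine (beside 14.5% of all probe sets); the other was BZIP53, a bZIP factor of low-energy responses, which peaked by day at 5.43 h with an amplitude of 0.48 ± 0.09 (limma, n = 12, adjusted p = 0.0091, and 0.030 without day 9 ZT4).

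Of 15 sugar and nitrogen transporters, 3 cycled, a share of the list not far from the 14.5% of all probe sets. SWEET11 (AT3G48740), which exports sucrose for phloem loading and was among the brightest genes named here, read 11.53, 10.72, 11.14, 11.58, 12.01 and 11.80, then 11.68, 10.96, 10.98, 11.61, 11.82 and 11.70. It was low in the light and highest at ZT16 on both days (amplitude 0.51 ± 0.07, peak 17.6 ± 0.49 h, limma, n = 12, adjusted p = 0.0011). SWEET13 (AT5G50800), another sucrose exporter, had a different course, at 2.47, 8.25, 3.20, 1.85, 2.07 and 2.75 on day 9 and 2.58, 8.48, 3.73, 2.03, 2.02 and 3.14 on day 10. Only the ZT4 arrays were high. SWEET13 rose by 5.84 ± 0.19 from ZT0 to ZT4 and fell by 4.90 ± 0.19 from ZT4 to ZT8 (limma, adjusted p = 1.2e-07 and 1.8e-06). Its lowest values were also near the filter level. The 24-hour cosine described this spike poorly (limma, adjusted p = 0.055), and the shape test called it at 9.6e-06. SWEET2, a vacuolar sugar carrier, peaked at 21.6 h with an amplitude of 0.36 (limma, adjusted p = 0.011, and 0.030, which ends the call, without day 9 ZT8 or day 10 ZT20).

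Of the 6 vein markers, 3 cycled (beside 14.5% of all probe sets), and besides SWEET11 these were GTR2 and LHW. GTR2, a glucosinolate importer of the phloem, ranged from 9.23 to 10.2 and peaked at 13.8 ± 0.49 h (amplitude 0.38 ± 0.05, limma, n = 12, adjusted p = 0.0011). LHW, a bHLH factor of vascular cell division, peaked at 15.4 ± 0.59 h with 6.55 and 6.55 at ZT12 against 5.52 and 5.48 at ZT4 (amplitude 0.50 ± 0.08, limma, n = 12, adjusted p = 0.0032). The 3 cycling vein markers peaked in the dark, between ZT8 and ZT24, as did 2079 of all 3163 called probe sets. The peptide gene CLE26 was lowest at ZT0, at 6.56 and 5.73, and read 8.19 to 8.64 from ZT4 to ZT12; its cosine fit missed the threshold (limma, adjusted p = 0.036), and the test over times did not (limma, adjusted p = 0.0011). OPS of the protophloem and the phloem-made peptide gene CLE41 had amplitudes of 0.27 and 0.16 (limma, adjusted p = 0.25 and 0.45).

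**Figure D3:**
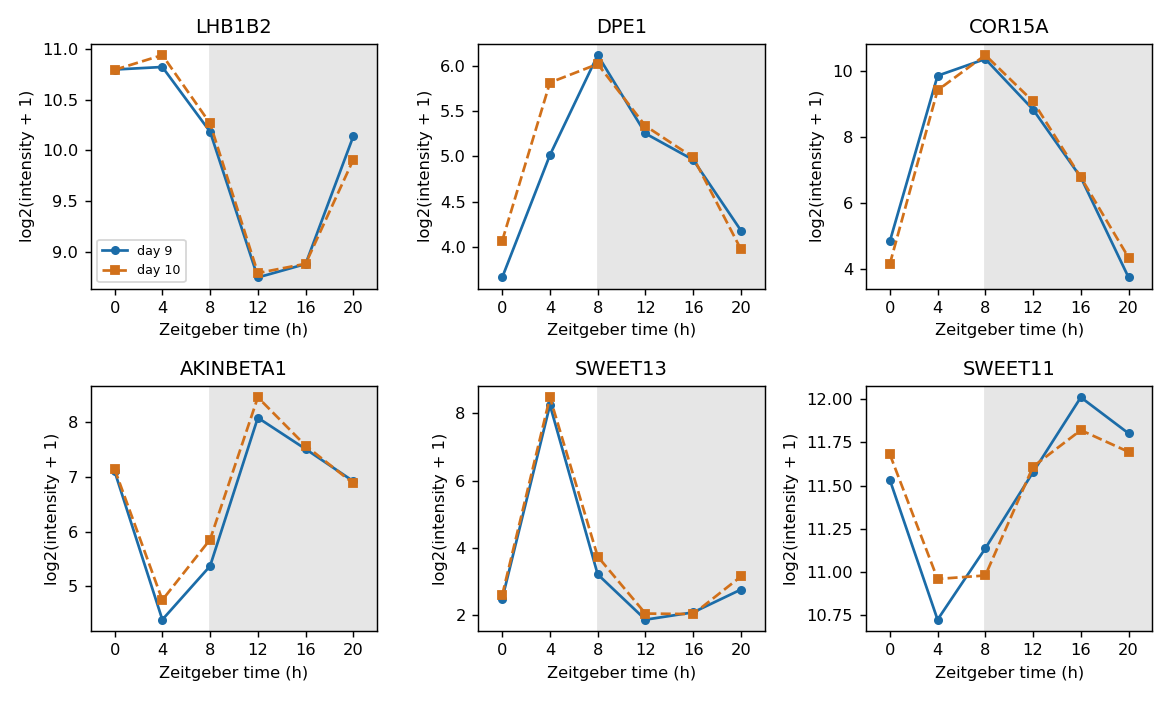
Each panel plots log2(intensity + 1) in short day veins against hours after lights on, with day 9 as circles, day 10 as squares, 1 array per point and the dark period shaded. LHB1B2 is highest at ZT0 and ZT4 and lowest at ZT12 and ZT16, DPE1 and COR15A are highest at ZT8, AKINBETA1 and SWEET11 are lowest at ZT4, and SWEET13 is high at ZT4 only.

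Cold-regulated genes peaked around lights off; the labels name no cold treatment. Of 7 measured, 6 cycled (beside 14.5% of all probe sets), with peaks from 6.65 to 12.2 h and a median amplitude of 1.07 over the 7. COR15A (AT2G42540), which encodes a chloroplast protein that protects membranes during freezing, read 4.83, 9.87, 10.38, 8.84, 6.78 and 3.74 on day 9. On day 10 it read 4.15, 9.43, 10.50, 9.09, 6.78 and 4.34. COR15A rose by 5.16 ± 0.25 from ZT0 to ZT4 (limma, adjusted p = 2.8e-06), was highest at ZT8 and declined through the night (amplitude 3.39 ± 0.28, peak 8.52 ± 0.31 h, limma, n = 12, adjusted p = 5.1e-05). Its time means spanned an 84.3-fold range on the scale of intensity + 1. KIN2 was highest at ZT8, at 10.72 and 10.76, with an amplitude of 1.79 ± 0.31 and a peak at 8.07 ± 0.66 h (limma, n = 12, adjusted p = 0.0057). The dehydrin COR47 had an amplitude of 0.80 ± 0.07 and a peak at 8.57 ± 0.32 h (limma, n = 12, adjusted p = 5.7e-05). KIN1, a dim gene at 0.41 ± 0.09, lost its call without any of 9 single arrays (adjusted p up to 0.059, without day 10 ZT8), and COR15B, with an amplitude of 1.07, missed it (limma, adjusted p = 0.042).

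**Figure D4:**
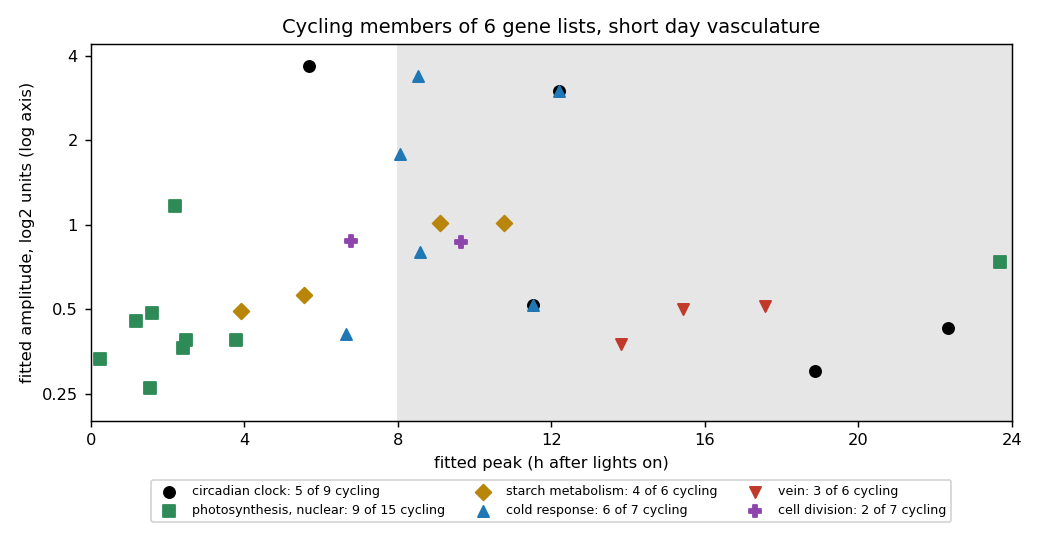
Each point is a cycling probe set of 6 gene lists in short day veins, at its fitted peak (h after lights on) and fitted amplitude (log2 units, log axis), with the dark period shaded; COR27 and COR28 are in both the clock and the cold list. Photosynthesis genes lie between 23.7 and 3.79 h, cold-regulated genes between 6.65 and 12.2 h, and vein markers between 13.8 and 17.6 h.

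Smaller groups held 1 or 2 cycling members each, and such counts in short lists are to be read beside the 14.5% of all probe sets. Among genes of cell division, 2 of 7 cycled: topoisomerase II (TOPII) peaked at 9.64 ± 0.61 h with 6.11 and 5.78 at ZT8 against 3.68 and 3.94 at ZT0 (amplitude 0.87 ± 0.14, limma, n = 12, adjusted p = 0.0035). The replication licensing gene PRL peaked at 6.78 ± 0.79 h (amplitude 0.87 ± 0.18, limma, n = 12, adjusted p = 0.015). The PRL call was lost without any of 5 single arrays (adjusted p up to 0.042, without day 9 ZT8). Of 8 auxin and growth genes, the homeodomain factor HAT2 and the expansin EXPA8 cycled, with peaks at 2.33 and 2.81 h and amplitudes of 0.82 ± 0.08 and 0.65 ± 0.08 (limma, n = 12, adjusted p = 0.00023 and 0.0012). Of 6 genes of other hormones, 2 cycled, the gibberellin receptors GID1A and GID1B, while the third receptor GID1C did not (limma, adjusted p = 0.81). GID1A and GID1B had the same amplitude, 0.44, and peaks at 13.1 and 19.8 h (limma, n = 12, adjusted p = 0.0060 and 0.013, the latter up to 0.036 with 1 array left out, without day 9 ZT20). Of 6 chlorophyll synthesis genes, 2 cycled, PORB and CHLM, with peaks at 8.33 and 18.2 h. The CHLM call was lost without any of 9 single arrays (adjusted p up to 0.074, without day 9 ZT8). NAI2 of the ER bodies peaked at 20.2 h with an amplitude of 1.48 ± 0.32 (limma, n = 12, adjusted p = 0.018), a call lost without any of 7 single arrays (adjusted p up to 0.061, without day 10 ZT8). None of the photorespiration (3), iron (5), flavonoid (3) or epidermis (4) genes cycled by limma's cosine test, in which 1, 1, 1 and 0 of them had an unadjusted p under 0.05. The test over times called 3 of the 5 iron and redox genes, BHLH101, CCS and ILR3 (limma, adjusted p = 0.016, 0.019 and 0.016), and 0 of the other 3 groups.

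Of the 9 genes of wounding and tissue isolation, 4 cycled (beside 14.5% of all probe sets). ORA47, an ERF factor of jasmonate responses, read 4.54, 6.33, 7.20, 6.24, 6.27 and 4.77, then 5.48, 6.49, 7.69, 6.14, 5.78 and 5.81, highest at ZT8 on both days (amplitude 1.00 ± 0.20, limma, n = 12, adjusted p = 0.011). AR781 and the calcium sensor CML38 peaked at 6.16 and 9.83 h with amplitudes of 0.69 and 0.49, and the ubiquitin ligase PUB22 at 16.2 h with 0.22. These calls were lost without any of 1 to 6 single arrays (adjusted p up to 0.054). The isolation was repeated at each time, and its part in rhythms that peak near ZT8 was not tested.

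Among probe sets of 1 gene, the largest amplitudes of the whole course included loci with no gene symbol in the reference used. AT2G47870 read 1.73, 8.70, 8.04, 2.86, 1.85 and 1.97, then 1.49, 7.18, 9.34, 2.58, 2.16 and 1.82, so it was high in the light at ZT4 and ZT8 and near the filter level otherwise (amplitude 3.71 ± 0.60, peak 6.53 ± 0.62 h, limma, n = 12, adjusted p = 0.0040). AT2G41250 was highest at ZT0 and ZT20 and lowest at ZT8, at 8.32, 4.56, 3.11, 3.78, 4.91 and 7.61, then 8.37, 5.63, 2.62, 3.60, 4.95 and 7.77 (amplitude 2.73 ± 0.20, peak 22 ± 0.29 h, limma, n = 12, adjusted p = 2.8e-05). AT1G73480 was high at ZT0 and ZT4, between 7.29 and 8.12, and fell by 3.94 ± 0.29 to ZT8 (amplitude 2.69 ± 0.23, limma, n = 12, adjusted p = 6.3e-05). AT4G15430 and AT1G05330 peaked at 22.2 and 0.14 h with amplitudes of 2.52 and 2.48.

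Later in the day came AT3G24230 (peak 5.23 h, amplitude 2.25), AT2G15880 (9.20 h, 2.44) and CCL (9.05 h, 2.35). CCL (AT3G26740) reached 10.48 and 10.47 at ZT8 and fell to 5.33 and 6.43 at ZT20. AT3G15630 peaked at 12.3 h with an amplitude of 1.79 ± 0.11 (limma, n = 12, adjusted p = 7.4e-06). Among the named probe sets of 1 gene, those with fitted peaks near ZT16 included, after AKINBETA1, AT1G65845, AT5G62900 and AT1G20530, with amplitudes of 1.35, 1.32 and 1.26, and those near ZT20 included AT5G14110, AT4G15710 and AT5G65380, with 1.80, 1.61 and 1.40. Of genes with a symbol, the metallothionein MT1C peaked at 23.0 ± 0.49 h (amplitude 2.01 ± 0.26, limma, n = 12, adjusted p = 0.0011) and the sucrose-phosphate synthase ATSPS4F at 8.18 ± 0.44 h (amplitude 1.47 ± 0.17, limma, n = 12, adjusted p = 0.00055). Of the 95 named cycling probe sets, 68 kept an adjusted p under 0.03 whichever single array was left out, and AT4G15710 was not among them (adjusted p up to 0.055, without day 10 ZT8). With 16 in place of 1 added before the log, 16 of the 95 lost their call, among them AKINBETA1, AR781, AT4G15710, CHLM, CML38, KIN1, NAI2, PIF7, PRL and SBE2.2.

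Patterns other than a sinusoid were called for 762 probe sets (3.49%), of which 398 were not called by the cosine test. This count moved with single arrays, down to 364 without day 10 ZT0, 396 without day 10 ZT12, 402 without day 9 ZT12 and 414 without day 9 ZT0. AT4G36850 had the largest deviation from a sinusoid, with a plateau from ZT12 to ZT0 and a sharp trough: it read 8.35, 2.54, 2.78, 7.80, 7.64 and 6.59, then 8.41, 3.46, 2.12, 7.99, 7.08 and 6.60. It fell by 5.38 ± 0.30 from ZT0 to ZT4 and rose by 5.45 ± 0.30 from ZT8 to ZT12 (limma, adjusted p = 6.9e-06 and 1.3e-05). AT4G27450 was built the same way and rose by 4.37 ± 0.29 at the latter step (limma, adjusted p = 3.2e-05). AT5G05965 was high at ZT0, at 6.97 and 6.42, with a lesser high at ZT12, at 4.57 and 4.34, and 2.15 to 2.56 at ZT4 and ZT8. FLP1, an FPF1-like gene, rose to 4.86 and 4.61 at ZT0 alone and read 1.63 to 2.29 at every other time.

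Changes between neighbouring times were most numerous in the 4 h after lights on and in the 4 h after lights off. A step was called where its adjusted p was under 0.05 and it changed the level by at least 1. Between ZT0 and ZT4, 932 were called (4.27%), of which 482 rose (2.21%) and 450 fell (2.06%), and between ZT8 and ZT12, 874 (4%), of which 399 rose (1.83%) and 475 fell (2.18%). Within the light, from ZT4 to ZT8, 435 were called (1.99%): 212 rose (0.971%) and 223 fell (1.02%). Steps within the dark were few: 57 rose (0.261%) and 41 fell (0.188%) from ZT12 to ZT16, 91 (0.417%) and 27 (0.124%) from ZT16 to ZT20, and 66 (0.302%) and 68 (0.312%) from ZT20 to ZT0. The dark counts depended on single arrays: the total of 98 (0.449%) from ZT12 to ZT16 fell to 31 without day 9 ZT16, 43 without day 9 ZT12 and 47 without day 10 ZT12. The total of 118 (0.541%) from ZT16 to ZT20 fell to 63 without day 9 ZT20, 69 without day 10 ZT20, 73 without day 10 ZT16 and 74 without day 9 ZT16. The total of 134 (0.614%) from ZT20 to ZT0 fell to 83 without day 9 ZT0, 85 without day 9 ZT20 and 88 without day 10 ZT20.

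Many probe sets moved in opposite directions at the morning and evening steps. Of those that rose from ZT0 to ZT4, 232 (48.1%) fell from ZT8 to ZT12, which is 48.8% of the latter, and of those that fell in the morning, 180 (40.0%) rose in the evening, which is 45.1% of the evening rises. Moving the same way at both was rare, with 1 rising and 4 falling. The steps around a full day cancel out, so opposite moves at the largest steps were in part built in. Within the dark, AT5G15950 rose by 3.23 ± 0.14 from ZT12 to ZT16 (limma, adjusted p = 7.7e-06), from 6.17 and 5.87 to 9.16 and 9.34, and MT1C rose by 2.97 ± 0.22 in the same step (limma, adjusted p = 0.00030). AT2G15880 fell by 3.13 ± 0.16 there (limma, adjusted p = 1.5e-05). From ZT16 to ZT20, AT4G15430 rose by 3.02 ± 0.10 and COR15A fell by 2.74 ± 0.25 (limma, adjusted p = 2.7e-07 and 0.00069). From ZT20 to ZT0 AT4G18810 fell by 2.34 ± 0.16 (limma, adjusted p = 9.8e-05), and FLP1 rose by 2.82 ± 0.13 (limma, adjusted p = 6.3e-06).

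Few levels differed between the days. By the same rule, 24 probe sets (0.11%) were higher on day 10 and 0 lower in limma's contrast, with 1769 at an unadjusted p under 0.05 in either direction. The 24 were not assigned to a gene, differed by 1.12 to 1.14, and nearly all shared identical deposited values. Counting probe sets of identical values once, an alternative added after the data were seen, left 0. That count was also 0 without both arrays of ZT8, of ZT12 or of ZT16, and without both of ZT20 it was 1, lower on day 10.

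The rhythm was then set against the 3 nearest groups; these comparisons share the 12 short day vein arrays. In short day mesophyll 2609 probe sets cycled (12.0%), in short day whole leaf 7584 (34.7%) and in long day veins 689 (3.16%). The spread between the days differed too, with a median SD of 0.148 in short day veins, 0.207 in mesophyll, 0.128 in whole leaf and 0.175 in long day veins, so the counts are not a measure of rhythm strength alone. A test of the difference between the fitted rhythms called 1339 probe sets (6.13%) against mesophyll, 2907 (13.3%) against whole leaf and 1144 (5.24%) against long day veins at an adjusted p under 0.05. The last count fell to 347 without the short day vein array of day 9 ZT4, to 499 without that of day 10 ZT4 and to 740 without that of day 9 ZT12.

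Against mesophyll of the same age and day length, 1164 probe sets cycled in both tissues, which is 36.8% of the vein list and 44.6% of the mesophyll list. The fitted peak in veins was earlier for 764 of them. For the 1164 together, the median shift was 0.54 h earlier in veins (quartiles 1.58 h earlier and 0.35 h later), and 20 differed by more than 6 h. Over these 1164 the median amplitude ratio, veins over mesophyll, was 0.65. For all 3163 probe sets that cycled in short day veins, the median amplitude was 0.49 there and 0.45 in mesophyll. The 1164 had to pass the cycling rule in both groups, which differ in spread, and the 3163 were chosen in veins alone. The largest vector difference between the rhythms was that of AT2G47870, at 3.60 (limma, adjusted p = 0.0054): it stayed between 1.51 and 2.16 in all 12 mesophyll arrays. AT1G05330 stayed between 1.43 and 1.83 there (vector difference 2.48, limma, adjusted p = 1.2e-05). The first CDF5 probe set, with a vein amplitude of 2.08, ranged from 1.53 to 2.18 in mesophyll (vector difference 2.08, limma, adjusted p = 1.2e-05), and the second differed by 1.37 (limma, adjusted p = 0.0019). AT2G47870, AT1G05330 and the first CDF5 probe set were near the filter level in mesophyll, so their vein rhythm had no counterpart to be compared with. The second CDF5 probe set was dim in mesophyll but highest at ZT0 on both days, as in veins. It read 2.79 and 2.15 there, against 1.69 to 2.03 at the other times.

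Other genes cycled more in mesophyll. AT1G55960 had an amplitude of 4.01 in mesophyll and 0.70 in veins at nearly the same mean level of 6.62 and 6.67 (vector difference 3.31, limma, adjusted p = 1.5e-05). AT4G21215 had 2.59 against 0.28, and AT5G48540, at background in veins, 2.44 against 0.08. AT5G48540 read 3.68 to 9.49 in isolated mesophyll but only 1.84 to 2.80 in short day whole leaf. The part of tissue isolation in its mesophyll values was not tested. GI and COR27 showed no called difference from mesophyll (vector differences 0.77 and 1.44, limma, adjusted p = 0.84 and 0.52), but the GI arrays at ZT0 read 3.48 and 2.81 in veins and 2.05 and 2.09 in mesophyll. LHB1B2 peaked at 2.20 h in veins and 4.84 h in mesophyll (vector difference 0.74, limma, adjusted p = 0.00044).

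Against whole leaf, which contains the veins, 2257 probe sets cycled in both (71.4% of the vein list and 29.8% of the leaf list), with a median peak 0.55 h earlier in veins and 54 more than 6 h apart. LHB1B2 peaked at 6.18 h in whole leaf and 2.20 h in veins (vector difference 1.05, limma, adjusted p = 1.1e-06). COR15A had an amplitude of 1.24 in whole leaf against 3.39 in veins (vector difference 2.19, limma, adjusted p = 0.0011). The largest differences were of genes near the filter level in veins: AT2G15020 had an amplitude of 3.36 in whole leaf and 0.06 in veins, the thionin THI2.2 2.96 and 0.02, and AT5G24155 2.73 and 0.12 (limma, adjusted p = 7.2e-05, 1.1e-05 and 0.0095). AT3G21670, listed in the reference table as a member of the NRT1/PTR transporter family, had 2.89 against 0.34 (limma, adjusted p = 4.7e-06). AT2G47870 was the exception, with 0.94 in whole leaf and 3.71 in veins (vector difference 2.77, limma, adjusted p = 0.026, and 0.056 without day 10 ZT8).

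Against long day veins the timing differed most. Of 365 probe sets that cycled in both (11.5% of the short day list and 53.0% of the long day list), 282 peaked earlier in short days. For the 365 together, the median shift was 1.67 h earlier in short days (quartiles 2.82 and 0.21 h earlier), and the median amplitude ratio was 1.06. Over all 3163 probe sets that cycled in short day veins, the median amplitude was 0.49 there and 0.28 in long day veins, a comparison in which the probe sets were chosen in the former group. Among the 1144 with a called difference in rhythm, 751 had the larger amplitude in short day veins.

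**Figure D5:**
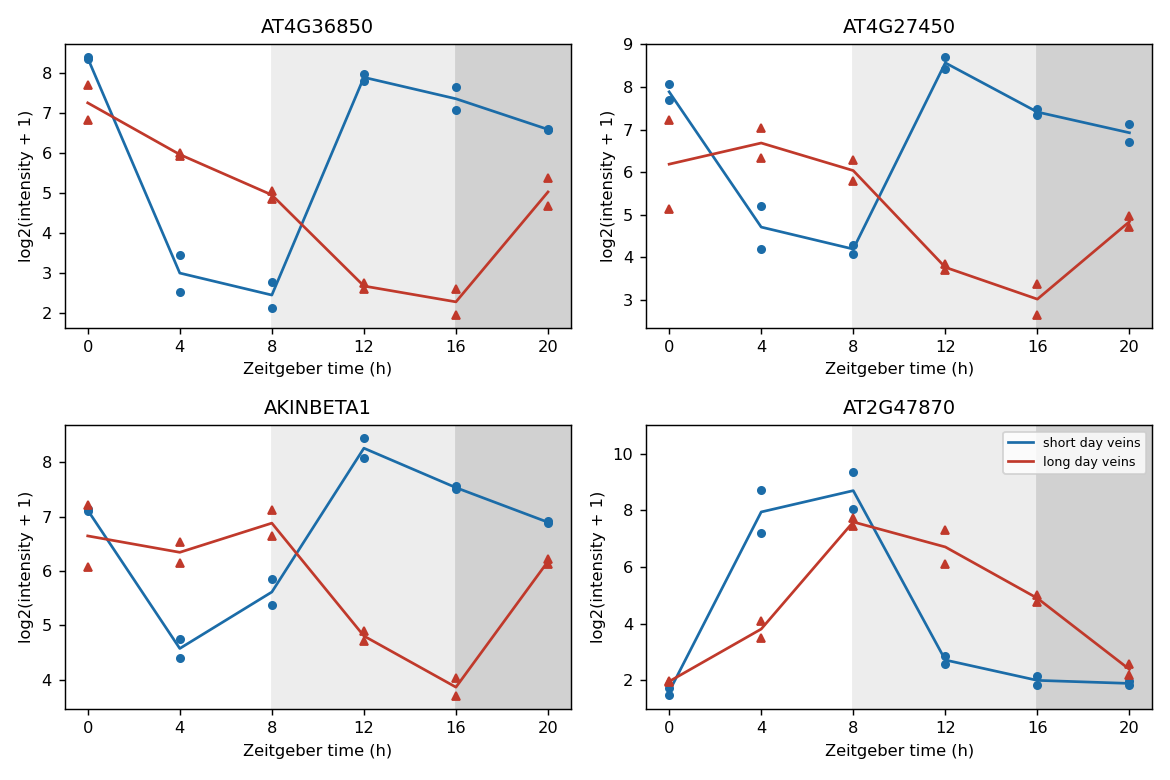
Each panel plots log2(intensity + 1) against hours after lights on in short day veins (blue circles) and long day veins (red triangles), 1 array per point, with lines through the means of the 2 days. Light grey marks the hours that are dark in short days only and dark grey those dark in both. AT4G36850, AT4G27450 and AKINBETA1 are high at ZT12 and ZT16 in short days and low there in long days.

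AT4G36850, AT4G27450 and AKINBETA1 had different courses in the 2 day lengths, although AT4G36850 and AKINBETA1 were high at ZT0 in both. In long day veins AT4G36850 read 7.69, 6.0, 4.87, 2.76, 1.96 and 5.38, then 6.83, 5.93, 5.05, 2.59, 2.60 and 4.68, lowest at ZT16 where it was high in short days (vector difference 4.05, limma, adjusted p = 0.014). AKINBETA1 read 7.21, 6.54, 7.12, 4.72, 3.70 and 6.22, then 6.08, 6.15, 6.64, 4.89, 4.02 and 6.14 there, with a fitted peak at 3.02 h instead of 16.1 h (vector difference 2.66, limma, adjusted p = 0.011). AT4G27450 moved from a fitted peak of 17.5 h to 3.27 h (vector difference 3.30, limma, adjusted p = 0.012). At ZT12, which is dark in short days and light in long days, and at ZT16, when the long day ends, all 3 were high in short days and low in long days.

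AT2G47870 peaked at 10.4 h in long days, where it stayed at 7.31 and 6.10 at ZT12 against 2.86 and 2.58 in short days (vector difference 3.27, limma, adjusted p = 0.024, and 0.062 without day 9 ZT4). AT3G54390 was highest at ZT16 in long day veins, at 7.87 and 7.43, and had no called rhythm in short days (vector difference 2.74, limma, adjusted p = 0.014). At ZT12 SNZ read 4.13 and 4.36 in long day veins against 3.15 and 2.71 in short days, and its amplitude there was 0.47 (vector difference 1.24, limma, adjusted p = 0.0087). PIF7 had an amplitude of 1.76 and a peak at 13.7 h in long day veins, against 0.37 and 4.01 h (vector difference 2.07, limma, adjusted p = 0.011). GI was not called (vector difference 1.35, limma, adjusted p = 0.41), although its ZT12 values of 4.11 and 4.71 in long days were above the 2.1 and 1.97 of short days.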

How the data were processed

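Total RNA of isolated tissue was labelled with the Affymetrix WT Terminal Labeling kit and hybridised to 1-colour arrays, as the labels' protocols state. The authors deposited linear intensities that came out of GCRMA (named, with no version or genome build, in the submitters' processing notes). That method corrects background, equalises the arrays' distributions and sums probes, so a change shared by most genes would be removed.

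Values were analysed as log2(intensity + 1), and differences of dim genes are understated on this scale. Probe sets with an intensity above 2.77 (percentile 40 of all values) in 6 or more of the 72 arrays were kept, 21827 of 28583. Probe sets were named through the platform annotation and RefSeq TAIR10.1. Among those kept, 12140 had 1 gene, 631 had several and went unnamed, and 9056 were not listed. Listed names that another gene also carries as its symbol (FDH, GLDH and CHI) were resolved by locus, a correction made after values were seen. No coordinates are given, since the arrays' build is not stated.

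Tests ran in R 4.3.3 (lmFit and eBayes of limma 3.58.1; tables read by data.table, 1.17.8) with Benjamini-Hochberg adjustment over all kept probe sets. They were a 24-hour cosine and sine, the 6 times as levels (both within the 12 arrays), the 3 remaining terms for shape, contrasts of neighbouring times, day 10 against day 9, and the group by cosine and sine interaction, where the vector difference measures how far apart the fitted coefficient pairs lie. Every test was two-sided. The arrays' number limits the precision. The scripts were tested on simulated data. Figures were drawn with matplotlib 3.10.9.

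The time course and gene lists were chosen with earlier results of these data known. Genes named are all measured clock, flowering and vein genes, up to 6 cycling members of each other list (and, after values were seen, the other cycling photosynthesis genes), the largest amplitudes overall and per peak time, the largest steps, shape deviations and rhythm differences, and, added after values were seen, genes with symbols of large amplitude per peak time. Uncalled members of other lists that are named, and the other tests given for list members, were also chosen after their values were seen. Lists of cytosolic ribosome and mitochondrion-encoded genes had 0 members measured by a probe set of 1 gene. The heat (1 of 5), secondary wall (1 of 4), jasmonate (1 of 4) and ER body lists (1 of 4) held 1 cycling member each, beside 14.5% of all probe sets. Alternatives tried were another added constant, centring, quantile normalization, other filters, each array left out, seedling day as a term, a linear trend, single days and stricter thresholds. A description of promoter motifs was not run.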

Additional observations from a re-analysis of the deposited data

Results flagged for a closer look

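For the 15 differences below, the test of the difference between fitted rhythms was past its threshold, and each is among the 5 largest of its comparison; the values are vector differences in log2 units. Against short day mesophyll they were 3.60 for AT2G47870, 3.31 for AT1G55960, 2.71 for AT4G21215, 2.52 for AT5G48540 and 2.48 for AT1G05330. Of these, AT2G47870 and AT1G05330 cycled more in veins and the other 3 in mesophyll. Against short day whole leaf they were 3.37 for AT2G15020, 2.94 for THI2.2, 2.78 for AT5G24155, 2.77 for AT2G47870 and 2.55 for AT3G21670, with the larger amplitude in veins for AT2G47870 alone. Against long day veins they were 4.05 for AT4G36850, 3.30 for AT4G27450, 3.27 for AT2G47870, 2.74 for AT3G54390 and 2.66 for AKINBETA1. AT2G47870 appears in all 3 comparisons, which share the short day vein arrays.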

How the results depend on the processing

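The count of cycling probe sets was 3163 and became 1812 at an adjusted p under 0.01, 1541 with an amplitude of at least 0.5 required, 19 with day 9 alone and 14 with day 10 alone; leaving out each array in turn gave 2270 to 3115. The test over times gave 3213 to 3561 with 1 array left out, against 3967. With 16 in place of 1 added before the log, the shape count fell from 762 to 501 and the steps from ZT0, 4, 8, 12, 16 and 20 to 419, 173, 318, 35, 48 and 52. With 1 array left out, shape ran from 364 to 715, those steps from 820 to 1084, 334 to 474, 751 to 898, 31 to 109, 63 to 123 and 83 to 139, and the rhythm differences from 1039 to 1270 (mesophyll), 2411 to 2806 (whole leaf) and 347 to 1380 (long day veins). The count of day 10 against day 9 became 0 with no filter, with 16 added and with identical probe sets counted once (chosen after seeing the data), and ran from 0 to 24 with both arrays of a time left out. The cause of these shifts was not tested, apart from fewer arrays in the fits that left some out. No named step changed sign under the alternatives run, but near-even counts of rises and falls changed which was larger: ZT0 to ZT4 (482 and 450) with arrays centred (469 and 475) and without day 10 ZT4 (540 and 544), ZT4 to ZT8 (212 and 223) with arrays centred (216 and 213) and without day 10 ZT4 (195 and 180), ZT8 to ZT12 (399 and 475) without day 10 ZT12 (384 and 367), and ZT20 to ZT0 (66 and 68) under 10 alternatives; day 10 against day 9 went from 24 higher to 1 lower without ZT20. Of the 95 named cycling calls, 95 were lost with day 9 alone, 94 with day 10 alone, 16 with 16 added, 12 with a linear trend, 6 with no filter, 6 with seedling day as replicate block and 1 with quantile normalization. The labels' time points give groups shared replicate numbers. Deviations from the time means correlated at 0.011 to 0.078 with mesophyll and 0.026 to 0.150 with whole leaf. With long day veins the correlations were -0.108 to -0.015. Whether samples of the same number came from the same seedlings was not tested. With seedling day as replicate block the counts were 2991 for cycling, 4105 over times and 840 for shape, and with day and time as the block the rhythm differences were 1720, 4329 and 1488. The promoter description was not run. Depth on arrays is signal over background: dim genes such as PIF7, COR28 and KIN1 have compressed differences.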
